A study of Homo sapiens with 18 samples.

Results

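The 10 imprinted genes H19, MEG3, IGF2, IGF2R, GRB10, KCNQ1OT1, CDKN1C, MEST, PEG10 and PEG3 were taken by name from the 44016 features of the count table, and all 10 were present. They were measured by poly(A) mRNA sequencing in A549, a long-established line from a human lung adenocarcinoma, across 18 libraries that form 6 groups of 3 replicates. The groups were a stable S100A16 knockdown (KD) given 100 µM hydrogen peroxide (H2O2) for 2 h, the same KD untreated, a stable hnRNPM KD untreated, a stable MagoHB KD untreated, wild-type (WT) cells given 100 µM H2O2 for 2 h and WT cells untreated. S100A16 binds calcium, hnRNPM binds nuclear RNA and acts in splicing, and MagoHB belongs to the exon junction complex that marks spliced mRNA. The WT cells are the common control. No source used here gives the knockdown method or says whether a KD line is a clone, so effects of making a line and of lowering its target cannot be told apart. The genes were chosen with earlier results of these libraries in view: H19 had already been named among the largest falls in the S100A16 KD, and which other values played a part is not recorded. The KD comparisons of the 10 genes are therefore a description: no p-value is given for them, and how many passed the threshold is stated only beside the share of all genes that did. P-values below concern H2O2 and genes outside the 10.

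An imprinted gene is expressed mainly from one parental allele, which is set by DNA methylation at a control region that passes through the germ line unequally in sperm and egg. H19 and IGF2 are the best known pair: in many tissues the maternal copy gives the H19 RNA and the paternal copy gives the growth factor IGF2, with the insulator protein CTCF bound on the unmethylated allele. MEG3 is the maternal long noncoding RNA of the DLK1 to DIO3 cluster, and loss of imprinting or silencing at both clusters is common in tumours. Counts per gene carry no information on the allele, so the levels below are sums over both alleles, and imprinting itself was not measured.

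On GRCh38, the count table placed H19 on chromosome 11 from 1995163 to 2001470 and IGF2 on the same minus strand from 2129112 to 2141238. MEG3 lies on the plus strand of chromosome 14 from 100779410 to 100861031. Both noncoding RNAs host microRNAs, whose mature sequences in RefSeq (GRCh38.p14) are shown with the seed, bases 2 to 8, in capitals. The miR-675 hairpin arms lie inside an H19 exon, whereas miR-770-5p lies in a MEG3 intron, which the exon counts of MEG3 do not cover. Their seeds differ from each other. The mature microRNAs were not measured.
hsa-miR-675-5p (chromosome 11, 1996800 to 1996822, minus strand): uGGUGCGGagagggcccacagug
hsa-miR-675-3p (chromosome 11, 1996768 to 1996787, minus strand): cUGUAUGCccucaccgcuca
hsa-miR-770-5p (chromosome 14, 100852409 to 100852431, plus strand): uCCAGUACcacgugucagggcca

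Promoter windows, 250 bases before to 50 after the RefSeq start, were found for 5 of the 10 genes (H19, MEG3, IGF2R, GRB10 and MEST). Those of H19 and MEG3 are shown because these genes lay on opposite sides of WT in the KDs, with each CG dinucleotide, the site of DNA methylation, in capitals. The H19 window held 6 CG and the first MEG3 window 19, against a median of 14 over 35116 windows, and 33.7% and 57.1% of windows held fewer. The letters TGACGTCA, the cyclic AMP response element, began at position -50 of the MEG3 window and TATAAA at -18. They stand in 1.85% and 11.5% of all windows, counting both strands, and neither is in the H19 window. The RefSeq start of MEG3 lies within the gene model of the count table, downstream of its first base. A match is a description of letters, not of factor binding.
H19 promoter (chr11:2001217-2001516, minus strand): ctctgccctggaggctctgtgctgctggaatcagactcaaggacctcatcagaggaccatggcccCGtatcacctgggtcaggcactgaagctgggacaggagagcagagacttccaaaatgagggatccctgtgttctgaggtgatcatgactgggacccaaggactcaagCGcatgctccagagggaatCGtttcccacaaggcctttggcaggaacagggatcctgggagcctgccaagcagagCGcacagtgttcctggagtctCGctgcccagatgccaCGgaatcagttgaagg
MEG3 promoter (chr14:100825858-100826157, plus strand): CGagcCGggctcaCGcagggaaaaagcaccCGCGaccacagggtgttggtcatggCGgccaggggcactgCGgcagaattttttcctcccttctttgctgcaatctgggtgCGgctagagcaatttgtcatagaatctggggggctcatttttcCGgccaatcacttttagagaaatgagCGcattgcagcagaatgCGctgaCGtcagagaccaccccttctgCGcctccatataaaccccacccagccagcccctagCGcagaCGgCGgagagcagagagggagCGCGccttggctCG

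Library totals ranged from 36612997 to 51406431 counts. Levels between samples are given as CPM, library-size-scaled counts, scaled by TMM, a correction for RNA composition, and levels between genes as the deposited RPKM, which divides by exon length. Among the replicates, untreated S100A16 KD 1, hnRNPM KD 3 and MagoHB KD 2 stood apart from their groups: a chi-square per degree of freedom over genes was 30.1 to 65.6 in the pairs that held one of them, against 3.09 to 5.598 in the other pairs. Results that rest on them are given with and without them. The labels call the replicates biological but do not say how cultures were separated, so the spread between them may be partly technical. Each targeted mRNA was low in its own KD: S100A16 averaged 8.43 ± 0.58 CPM with its own KD, untreated, and 119 ± 1.8 in untreated WT, HNRNPM 368 ± 76 with its KD and 1766 ± 31 in WT, and MAGOHB 52.1 ± 13 with its KD and 150 ± 5.3 in WT (SD, n = 3 each). The targets were also lower in other KDs. MAGOHB stood at 44.4% of WT in the hnRNPM KD (edgeR adjusted p = 3.68e-06), where its libraries overlapped those of the MagoHB KD, and at 65.0% in the untreated S100A16 KD (edgeR adjusted p = 0.00122). S100A16 stood at 51.1% of WT in the MagoHB KD (edgeR adjusted p = 2.79e-07), and HNRNPM at 67.5% in the untreated S100A16 KD and 80.4% in the MagoHB KD (edgeR adjusted p = 9.11e-04 and 0.0458). For HNRNPM, MagoHB KD 2 was lowest of its group at 1149 CPM, against 1599 and 1514 CPM in MagoHB KD 1 and 3. S100A16 was not lower in the hnRNPM KD, at 101.7% of WT (edgeR adjusted p = 0.867). The KDs were thus not fully separate in their targets. Of 5 epithelial markers, 4 averaged over 1 RPKM in every group. KRT19 peaked at 0.535 RPKM, whereas KRT8 and KRT18 made up most of the sum, which was 1653 to 1783 RPKM in the S100A16 KD under H2O2, 1489 to 1621 in the untreated S100A16 KD, 1235 to 1340 in the hnRNPM KD, 877 to 967 in the MagoHB KD, 895 to 952 in WT under H2O2 and 827 to 889 in untreated WT. Their part in the results was not tested. The 5 leukocyte and 4 endothelial markers summed to at most 0.771 and 0.123 RPKM, and of 6 fibroblast markers 2 (COL1A1 and PDGFRA) averaged over 1 RPKM.

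H19, a long noncoding RNA of the embryo and of many tumours, had 3.29, 2.74 and 3.07 CPM in the S100A16 KD under H2O2 and 3.09, 2.80 and 2.28 CPM in the untreated S100A16 KD. It had 4.86, 5.30 and 3.84 CPM in the hnRNPM KD and 20.5, 6.27 and 15.6 CPM in the MagoHB KD. In WT it had 35.0, 31.2 and 30.2 CPM under H2O2 and 34.0, 36.3 and 26.4 CPM untreated. In bulk RNA, fewer cells with the transcript and less of it per cell cannot be told apart. Every KD library lay below every WT library, with the S100A16 KD lowest, the hnRNPM KD next and the MagoHB KD closest to WT. The group means were 2.73 ± 0.41 CPM in the untreated S100A16 KD, 4.67 ± 0.75 in the hnRNPM KD, 14.2 ± 7.2 in the MagoHB KD and 32.2 ± 5.2 in untreated WT (SD, n = 3). That is 8.47% of WT (log2 fold change -3.56), 14.5% (-2.79) and 43.9% (-1.20). Under H2O2 the S100A16 KD had 9.43% of the WT level (-3.41). The library MagoHB KD 2 was the lowest of its group, and without it the log2 fold change of H19 in the MagoHB KD was -0.84.

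MEG3, a noncoding RNA that raises p53 activity in several cell types, stood on the other side of WT. It had 72.2, 67.6 and 66.8 CPM in the S100A16 KD under H2O2, 84.7, 84.1 and 80.2 CPM in the untreated S100A16 KD, and 95.1, 110 and 191 CPM in the hnRNPM KD. In the MagoHB KD it had 59.0, 189 and 80.5 CPM. In WT it had 12.7, 12.9 and 11.02 CPM under H2O2 and 12.2, 15.5 and 14.1 CPM untreated. All 12 KD libraries lay above all 6 WT libraries, and the highest values were those of hnRNPM KD 3 and MagoHB KD 2. The means were 83.0 ± 2.4 CPM in the untreated S100A16 KD, 132 ± 52 in the hnRNPM KD, 110 ± 70 in the MagoHB KD and 13.9 ± 1.7 in untreated WT (SD, n = 3), or 5.97-fold, 9.49-fold and 7.88-fold WT. The log2 fold changes were 2.58, 3.25 and 2.98, and 2.49 for the S100A16 KD against WT, both under H2O2. Leaving out hnRNPM KD 3 gave 2.88 and leaving out MagoHB KD 2 gave 2.33, so the order of the 3 KDs in MEG3 rests on those libraries. Per length, MEG3 stood at 0.807 RPKM in untreated WT, below H19 at 10.4 RPKM, and at 5.67 RPKM in the untreated S100A16 KD, above H19 at 1.04 RPKM. In the MagoHB KD it was above H19 per length only in library 2, where the ratio of MEG3 to H19 RPKM was 5.40, against 0.515 and 0.922 in libraries 1 and 3.

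**Figure D1:**
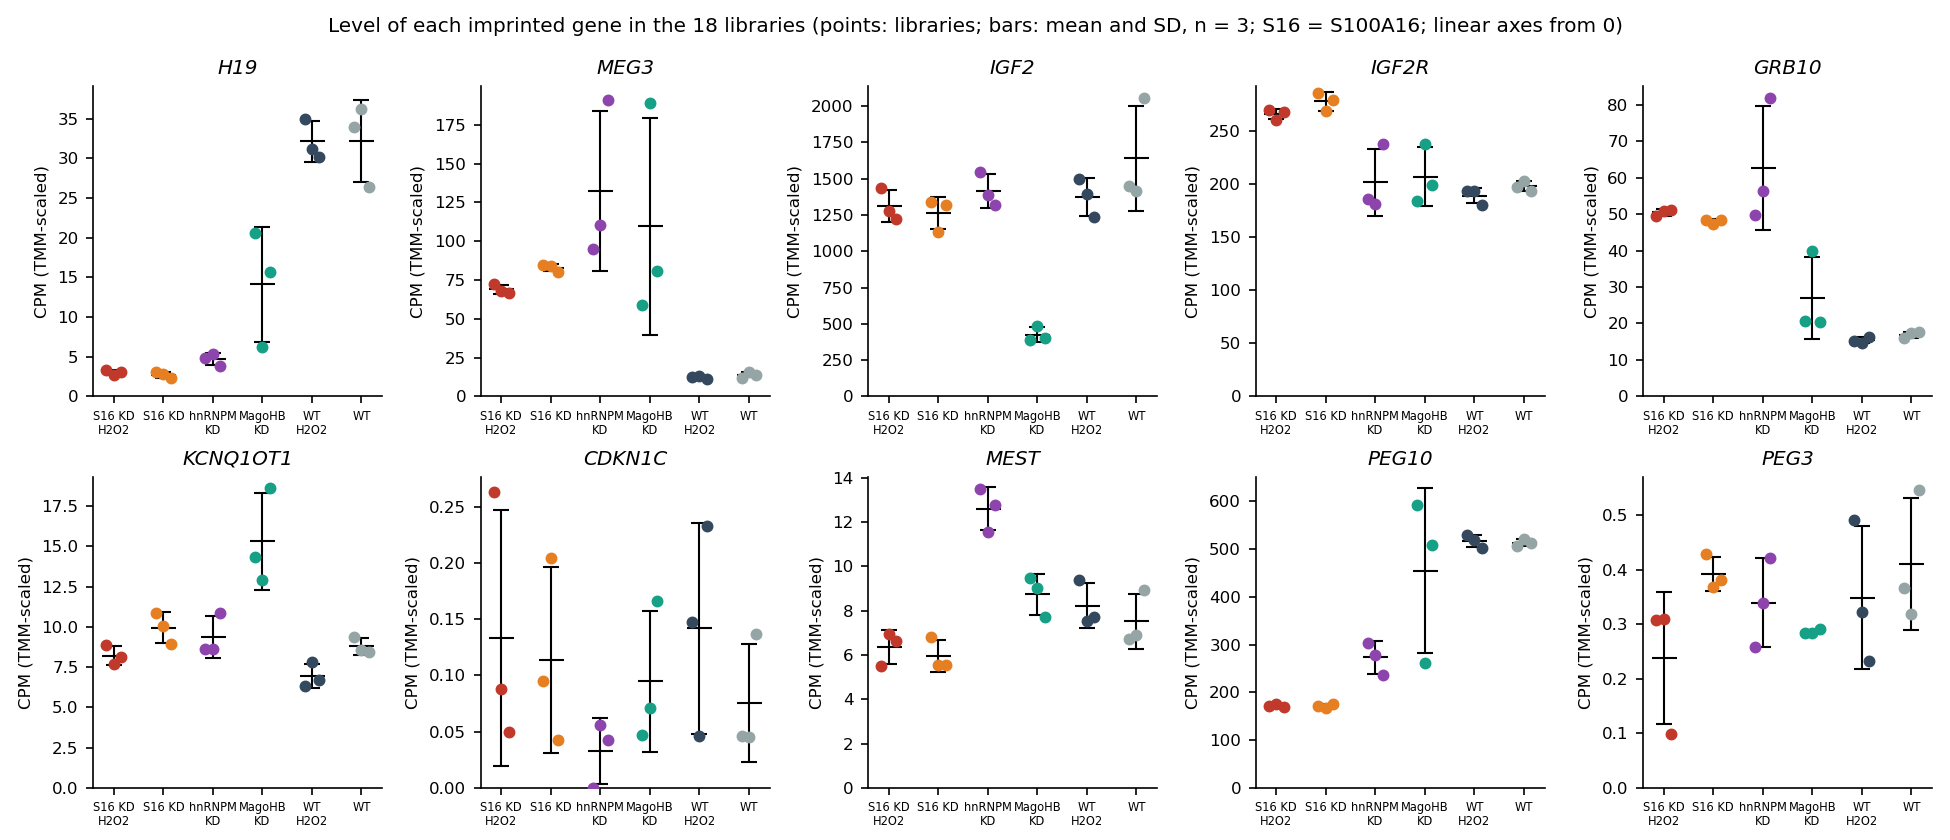
Level of each of the 10 imprinted genes in CPM (linear axes from 0) for the 6 groups, with points for libraries and bars for the mean and SD (n = 3). H19 is below WT and MEG3 above WT in every KD library, IGF2 is low in the MagoHB KD at 389 to 486 CPM, and PEG10 is low in both S100A16 KD groups at 167 to 175 CPM.

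**Figure D2:**
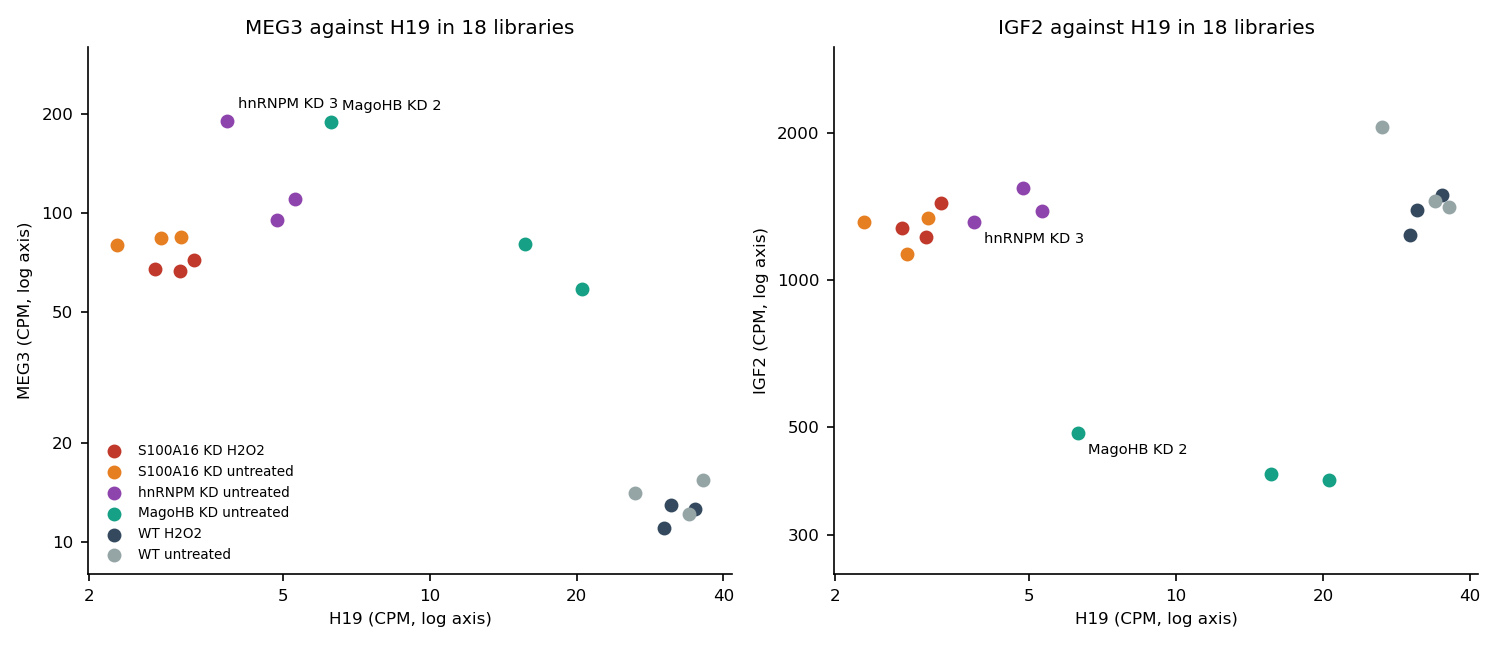
MEG3 (left) and IGF2 (right) against H19 in CPM, log axes, with 1 point per library coloured by group. The 6 WT libraries sit at 26.4 to 36.3 CPM of H19 and 11.02 to 15.5 CPM of MEG3, and MagoHB KD 2 lies nearer to the hnRNPM KD than to the other MagoHB KD libraries on H19 and MEG3 but not on IGF2.

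IGF2, the growth factor beside H19, did not follow H19. It had 1435, 1277 and 1222 CPM in the S100A16 KD under H2O2, 1339, 1133 and 1316 CPM in the untreated S100A16 KD, and 1547, 1384 and 1316 CPM in the hnRNPM KD. The MagoHB KD had 389, 486 and 401 CPM. WT had 1495, 1392 and 1234 CPM under H2O2 and 1449, 1413 and 2054 CPM untreated. The MagoHB KD lay below every other library, at 26.0% of untreated WT (log2 fold change -1.95, and -2.05 without MagoHB KD 2). The untreated S100A16 KD lay below WT in all libraries at 77.1% (-0.38), and without WT 3, the highest WT library, the log2 fold change was -0.20. The hnRNPM KD overlapped WT at 86.4%, as did the S100A16 KD under H2O2 at 95.5% of its own WT. The ratio of IGF2 to H19 RPKM was 182 to 260 in the untreated S100A16 KD, 118 to 155 in the hnRNPM KD and 17.6 to 35.1 in untreated WT. In the MagoHB KD, where both genes were below WT, the ratio was 8.55 and 11.6 in libraries 1 and 3, below every untreated WT library. Only MagoHB KD 2, which stood apart, reached the WT range at 35.0. IGF2 was the most abundant of the 10 genes per length, at 240 RPKM in untreated WT, rank 189 of 44016 features.

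IGF2R, the receptor that carries IGF2 to lysosomes, had 270, 260 and 268 CPM in the S100A16 KD under H2O2 and 286, 268 and 279 CPM in the untreated S100A16 KD. It had 186, 181 and 238 CPM in the hnRNPM KD, whereas the MagoHB KD had 184, 238 and 199 CPM. WT had 193, 194 and 181 CPM under H2O2 and 197, 203 and 193 CPM untreated. Both S100A16 KD groups lay above all other libraries, at 1.40-fold untreated WT (log2 0.49) and 1.41-fold WT under H2O2 (0.49), while the other KDs overlapped WT at 1.02-fold and 1.05-fold. The hnRNPM overlap rests on library 3, since hnRNPM KD 1 and 2 lay below every untreated WT library. Without the 3 libraries that stood apart, the hnRNPM log2 fold change was -0.11 in place of 0.03. Without MagoHB KD 2, the MagoHB value was -0.05 in place of 0.07. GRB10, an adaptor that restrains insulin and IGF1 receptor signalling, had 49.5, 50.8 and 51.1 CPM in the S100A16 KD under H2O2 and 48.3, 47.2 and 48.4 CPM in the untreated S100A16 KD. The hnRNPM KD had 49.8, 56.4 and 81.8 CPM and the MagoHB KD 20.6, 39.8 and 20.5 CPM. WT had 15.2, 14.7 and 16.4 CPM under H2O2 and 15.99, 17.3 and 17.6 CPM untreated. Like MEG3, GRB10 was above WT in all 12 KD libraries, at 2.83-fold (log2 1.501) in the untreated S100A16 KD, 3.69-fold (1.89) in the hnRNPM KD and 1.59-fold (0.68) in the MagoHB KD. Without hnRNPM KD 3 the hnRNPM value was 1.64, and without MagoHB KD 2 the MagoHB value was 0.28.

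PEG10, a gene derived from a retrotransposon and expressed from the paternal allele in placenta, had 172, 175 and 168 CPM in the S100A16 KD under H2O2 and 172, 167 and 175 CPM in the untreated S100A16 KD. The hnRNPM KD had 304, 279 and 237 CPM and the MagoHB KD 593, 261 and 509 CPM. WT had 529, 520 and 502 CPM under H2O2 and 506, 521 and 513 CPM untreated. The untreated S100A16 KD thus held 33.4% of the WT level (log2 -1.58) and the hnRNPM KD 53.3% (-0.91), both without overlap. The MagoHB KD overlapped WT at 88.5% (-0.18), with library 2 far below libraries 1 and 3, and without library 2 its log2 fold change was 0.10. MEST, a paternally expressed gene of the hydrolase family, had 13.5, 11.5 and 12.7 CPM in the hnRNPM KD, above every other library, whereas untreated WT had 6.74, 6.89 and 8.95 CPM. That is 1.68-fold WT (log2 0.75). In the untreated S100A16 KD it had 6.80, 5.55 and 5.56 CPM, or 79.4% of WT (-0.34) with overlap, and in the MagoHB KD 9.49, 9.02 and 7.70 CPM, or 1.16-fold, also with overlap. The S100A16 KD under H2O2 held 5.5, 6.93 and 6.64 CPM, all below the 9.39, 7.54 and 7.73 CPM of WT under H2O2.

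KCNQ1OT1, the paternal antisense RNA that silences its domain on chromosome 11, had 14.3, 12.9 and 18.7 CPM in the MagoHB KD, above every other library, and 9.39, 8.59 and 8.42 CPM in untreated WT. That is 1.74-fold WT (log2 0.80). It had 10.8, 10.03 and 8.93 CPM in the untreated S100A16 KD (log2 0.17) and 8.60, 8.62 and 10.8 CPM in the hnRNPM KD (log2 0.09), overlapping WT in both. In the count table it is a single exon of 91667 bases, so its RPKM was low, 0.0878 in untreated WT. PEG3, a zinc finger gene expressed from the paternal allele, and CDKN1C, a maternally expressed inhibitor of cyclin-dependent kinases, were close to the limit of detection. PEG3 had 4 to 24 counts per library and 0.0991 to 0.546 CPM. CDKN1C had 0 to 12 counts and did not pass the filter on low counts, so 9 of the 10 genes entered the fit. PEG3 in the MagoHB KD, at 0.284 to 0.290 CPM, lay below the 0.318 to 0.546 CPM of untreated WT, a gap of a few counts, and in the other KDs it overlapped WT.

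**Figure D3:**
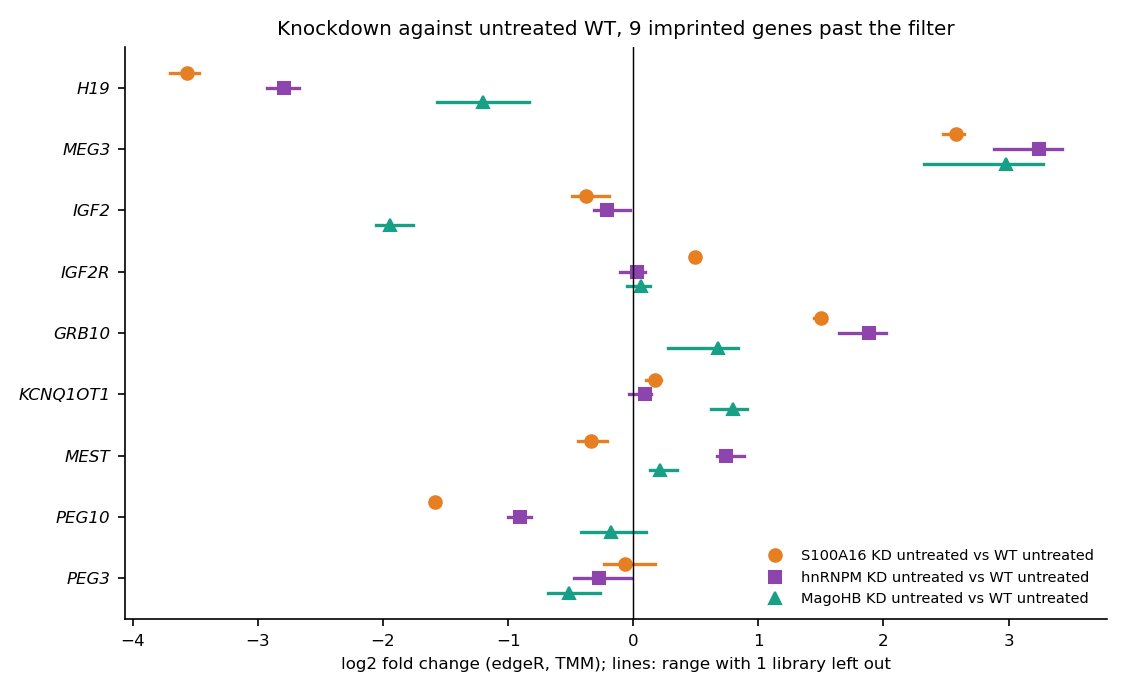
Log2 fold change (horizontal axis) of the 9 imprinted genes past the filter in the untreated S100A16, hnRNPM and MagoHB KDs against untreated WT, with lines for the range when 1 library is left out. H19 lies at -3.56, -2.79 and -1.20 and MEG3 at 2.58, 3.25 and 2.98, while IGF2 is far from 0 in the MagoHB KD at -1.95.

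Set side by side, the 3 KDs had different patterns in the same 9 genes. MEG3 and GRB10 were above WT and H19 below WT in all 3. PEG10 was low in the S100A16 and hnRNPM KDs, IGF2R high in the S100A16 KD, MEST high in the hnRNPM KD, and IGF2 low and KCNQ1OT1 high in the MagoHB KD. Between KDs, H19 in the untreated S100A16 KD was 58.4% of the hnRNPM KD level and 19.3% of the MagoHB KD level, in both cases without overlap of libraries. H19 in the hnRNPM KD was 33.0% of the MagoHB KD level, also without overlap. MEG3 in the S100A16 KD was 62.8% of the hnRNPM KD, with no overlap, and 75.8% of the MagoHB KD, with overlap. The log2 fold change against the hnRNPM KD was -0.67, and -0.31 without hnRNPM KD 3. Against the MagoHB KD it was -0.40, and without MagoHB KD 2 it changed sign to 0.25. IGF2 was 2.97-fold higher in the S100A16 KD and 3.33-fold higher in the hnRNPM KD than in the MagoHB KD.

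By edgeR's quasi-likelihood test with Benjamini-Hochberg adjustment over 22382 genes and a threshold of 0.05, 7 of the 9 genes were called in the untreated S100A16 KD against WT, where 52.3% of all genes were called. Of these, MEG3, IGF2R and GRB10 were higher and H19, IGF2, MEST and PEG10 lower. Under H2O2, 6 were called between the S100A16 KD and WT (all genes 52.5%), IGF2 being the one that differed. The hnRNPM KD had 5 called (all genes 49.1%) and the MagoHB KD 5 (all genes 45.5%). Between KDs, 3 were called for S100A16 against hnRNPM (48.8%), 7 for S100A16 against MagoHB (44.8%) and 6 for hnRNPM against MagoHB (44.5%). Since the genes were chosen on such comparisons, these counts are no evidence about them, and nothing is read from the counts or from their changes below. The median log2 fold change of the 9 genes was -0.07 in the untreated S100A16 KD, 0.03 with the hnRNPM KD and 0.07 with the MagoHB KD, against 0.06, 0.02 and 0.04 over all genes tested. In the untreated S100A16 KD, IGF2 and MEST were not called without WT 3 or without S100A16 KD 2, nor MEST without S100A16 KD 3. Under H2O2, MEST was not called without WT 1 or without S100A16 KD 1. In the MagoHB KD, GRB10 was not called without MagoHB KD 2 or without any 1 of the WT libraries. PEG10 was not called for S100A16 against hnRNPM without hnRNPM KD 1, nor for hnRNPM against MagoHB without MagoHB KD 1. Leaving out the 3 libraries that stood apart, 5 genes were called for S100A16 against hnRNPM, with H19 and GRB10 added. That fit called 11672 of 22638 genes for the same comparison. It also added IGF2R for the hnRNPM KD against WT (11527 of 22638) and MEG3 for hnRNPM against MagoHB (10644 of 22638).

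H2O2 for 2 h moved none of the 9 genes past the threshold. In WT, 0 of 9 were called, where 0.223% of all genes were called, and adjusted p ranged from 0.598 to 1.00. In the S100A16 KD, 0 of 9 were called (all genes 0.0134%), with adjusted p from 0.729 to 0.999, and 0 of 9 for the interaction (all genes 0.0938%), with adjusted p = 1.00 for each. Over all genes, 1477, 1515 and 1134 had an unadjusted p under 0.05 in these 3 comparisons by edgeR, and DESeq2 called 104, 75 and 38 genes, none of them one of the 9. H19 averaged 32.1 ± 2.5 CPM in WT under H2O2 and 32.2 ± 5.2 CPM in untreated WT, a log2 fold change of -0.00 with a 95% interval of -0.63 to 0.62. In the S100A16 KD it averaged 3.03 ± 0.28 CPM under H2O2 and 2.73 ± 0.41 CPM untreated (0.16, interval -0.67 to 0.98). A p that misses the threshold does not show equal levels, and these intervals give the size of change left undetected.

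KCNQ1OT1 was the member nearest to the threshold in both backgrounds. It had 6.33, 7.81 and 6.71 CPM in WT under H2O2, all below untreated WT (log2 -0.34, SE 0.13, edgeR adjusted p = 0.598). In the S100A16 KD it had 8.85, 7.68 and 8.10 CPM under H2O2, all below the untreated KD (-0.27, SE 0.13, edgeR adjusted p = 0.729). MEG3 under H2O2 was below the untreated S100A16 KD in all 3 libraries (68.9 ± 2.9 CPM under H2O2 and 83.0 ± 2.4 CPM untreated, SD, n = 3). Its log2 fold change was -0.27 with an edgeR adjusted p = 0.961 in the fit over all groups, and 0.482 without the 3 libraries that stood apart. With only the 6 libraries compared, MEG3 was at -0.28 with an edgeR adjusted p = 6.44e-05. For this comparison the fit over all groups called 3 of 22382 genes. The fit without the 3 libraries that stood apart called 364 of 22638, and the 6-library fit 801 of 20586. The 6-library fit differs in its spread, gene filter and scaling, and which of these gave the call was not tested.

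Reads of neighbouring features bear on how these genes were counted, since no source used here names the program that made the counts or its use of strand. A feature of 69 shared bases on the opposite strand inside H19, H19_2, averaged 0.369 ± 0.068 CPM in the untreated S100A16 KD, against 4.52 ± 1.2 CPM in untreated WT, and followed H19 across groups. H19_2 has exon blocks on 2 chromosomes, so its reads need not all come from this locus. Reads of both strands of H19 may have been counted together, which was not tested. IGF2 shares 998 exon bases with INS-IGF2, a read-through gene, which averaged 16.02 ± 1.1 CPM in the untreated S100A16 KD, 19.1 ± 1.7 in the hnRNPM KD, 5.20 ± 0.43 in the MagoHB KD and 21.2 ± 3.5 in untreated WT (SD, n = 3). MEST, at 251 to 628 counts per library, shares exon bases with 3 features on the opposite strand: 59 with COPG2 (255 to 539 counts), 484 with MESTIT1 (12 to 48 counts) and 602 with a further annotated transcript (92 to 221 counts). PEG3 shares 1037 bases with ZIM2. IGF2R, GRB10, CDKN1C and PEG10 overlapped no other feature of the table.

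Around MEG3, the other maternal RNAs described here, MEG8 and MEG9, averaged above WT in all 3 KDs. MEG8 starts 56.9 kb past the MEG3 start on the same strand, inside the MEG3 gene model, and shares 108 exon bases with MEG3. Its reads may therefore not be separate from those of MEG3, which was not tested. MEG8 averaged 1.52 ± 0.29 CPM in the untreated S100A16 KD, against 0.129 ± 0.026 CPM in untreated WT (log2 3.52, SE 0.41, edgeR adjusted p = 2.64e-07). It was at 1.48 ± 0.24 CPM in the hnRNPM KD (3.49, SE 0.41, edgeR adjusted p = 3.54e-07), and the MagoHB KD had 0.686 ± 0.45 CPM (2.42, SE 0.43, edgeR adjusted p = 9.95e-05). MEG9, 291 kb downstream, was named after its values were seen. It averaged 0.397 ± 0.17 CPM in the untreated S100A16 KD, 1.35 ± 0.54 with the hnRNPM KD and 0.581 ± 0.37 with the MagoHB KD, against 0.167 ± 0.027 in WT. As MEG9 was picked on these values, no p is given for it. Of the paternal genes of the cluster, DLK1 had at most 1 count and RTL1 at most 8 counts in any library, at or near the floor. DIO3, also named after its values were seen, had 0 to 26 counts and group means of 0.243 to 0.342 CPM. In untreated WT, MEG8 had 5 to 7 counts and MEG9 6 to 8 counts per library, so their changes rest on few reads there. WDR25, at -403 kb from the MEG3 start, rose in the untreated S100A16 KD (log2 0.85, edgeR adjusted p = 0.00124), the hnRNPM KD (0.78, 0.00311) and the MagoHB KD (0.82, 0.00218, both adjusted p). HSP90AA1, a chaperone gene 1360 kb downstream, fell to 2513 ± 299 CPM in the hnRNPM KD, against 6022 ± 226 CPM in WT (log2 -1.26, edgeR adjusted p = 1.62e-09), and fell by 0.41 and 0.50 on the log2 scale in the untreated S100A16 and MagoHB KDs (edgeR adjusted p = 0.00141 and 2.51e-04).

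Around H19, MRPL23, a mitochondrial ribosomal gene at -54.2 kb, on the side away from IGF2, fell to 5.70 ± 0.22 CPM in the untreated S100A16 KD, against 9.33 ± 0.65 CPM in WT (log2 -0.71, SE 0.11, edgeR adjusted p = 1.99e-05). CTSD, the lysosomal protease cathepsin D, at -237 kb, rose to 54.4 ± 3.1 CPM in that KD, against 26.5 ± 3.2 CPM in WT (log2 1.04, SE 0.11, edgeR adjusted p = 4.98e-07). It also rose in the MagoHB KD (0.48, edgeR adjusted p = 0.00222), and MRPL23 also fell in the hnRNPM KD (-0.47, edgeR adjusted p = 0.00149). Genes of the KCNQ1OT1 domain fell in the hnRNPM KD, SLC22A18 by 1.24 and SLC22A18AS by 1.59 on the log2 scale (edgeR adjusted p = 2.09e-08 and 8.58e-09). Both also fell in the untreated S100A16 KD (-0.53 and -0.63, edgeR adjusted p = 6.33e-04 and 5.36e-04). They overlap on opposite strands, so their reads may be shared. PHLDA2, a maternally expressed gene of placental growth in that domain, fell to 3.72 ± 0.24 CPM in the MagoHB KD, against 6.95 ± 0.47 CPM in WT (log2 -0.90, edgeR adjusted p = 2.95e-05), and to 3.86 ± 1.1 CPM in the hnRNPM KD (-0.84, edgeR adjusted p = 5.64e-05). SGCE, the imprinted neighbour of PEG10, averaged 18.05 ± 1.3 CPM in the untreated S100A16 KD, 17.6 ± 1.0 in the MagoHB KD and 27.1 ± 1.6 in WT (log2 -0.59 and -0.63, edgeR adjusted p = 1.30e-05 and 8.36e-06), and 21.1 ± 2.7 in the hnRNPM KD (-0.37, edgeR adjusted p = 0.00202).

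**Figure D4:**
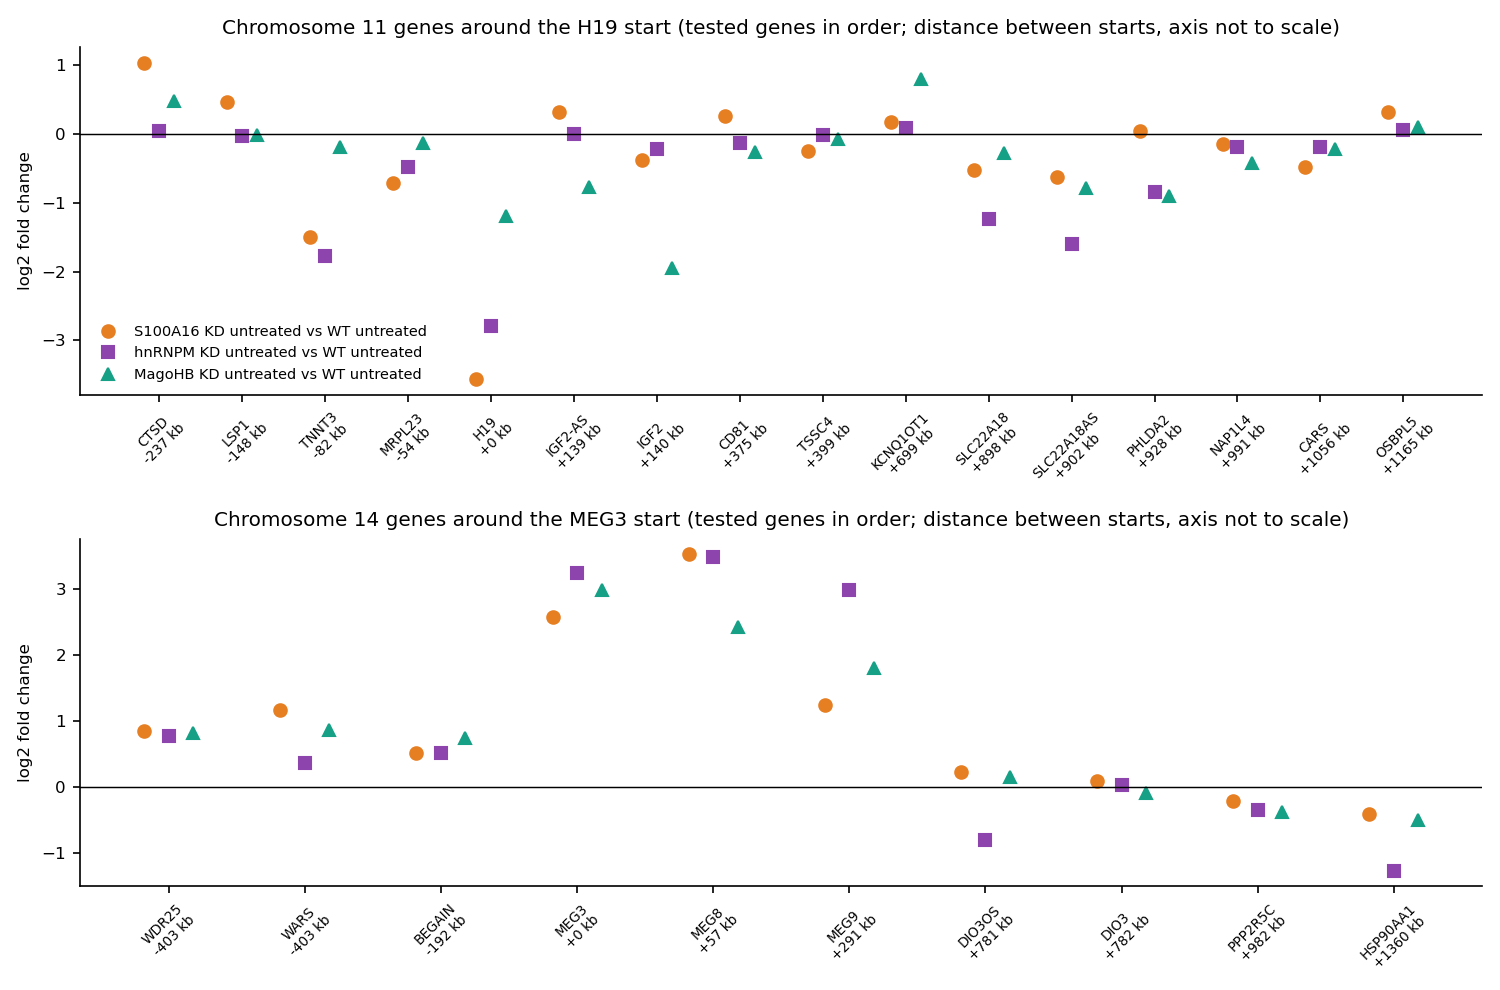
Log2 fold change in the 3 untreated KDs against WT for tested genes around the H19 start (top) and the MEG3 start (bottom), in chromosomal order with the distance between starts in kb below each name. MEG3 and MEG8 are high in all 3 KDs, at 2.33 or more with any single library left out for MEG3, while IGF2, 140 kb from H19, lies at -0.38, -0.21 and -1.95.

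Of 37 genes chosen as neighbours of the 10, 28 were tested. In the untreated S100A16 KD 12 were higher and 8 lower than WT, in the hnRNPM KD 3 were higher and 8 lower, while in the MagoHB KD 5 were higher and 5 lower, with list medians of 0.13, -0.03 and -0.02 on the log2 scale. The shares called were 71.4%, 39.3% and 35.7%, beside 52.3%, 49.1% and 45.5% of all genes. With scaling by total counts alone, 13 were higher and 4 lower in the S100A16 KD, 4 and 6 in the hnRNPM KD, and 10 and 3 in the MagoHB KD. That scaling called 12438, 11187 and 11009 of 22382 genes in these comparisons. SLC22A3, a cation transporter beside IGF2R, rose in all 3 (0.61, 0.28 and 0.38, edgeR adjusted p = 1.08e-07, 0.00150 and 6.73e-05). Near PEG10, the paraoxonase gene PON2 rose in the untreated S100A16 KD and fell in the hnRNPM KD (0.38 and -0.50, edgeR adjusted p = 1.26e-05 and 4.28e-07), CASD1 fell in the untreated S100A16 KD (-0.73, edgeR adjusted p = 1.46e-05) and PON3 in the hnRNPM KD (-0.87, edgeR adjusted p = 1.75e-05). FIGNL1, near GRB10, fell in the untreated S100A16 KD (-0.62, edgeR adjusted p = 2.08e-04), and PPP2R5C and NAP1L4 fell in the MagoHB KD (-0.38 and -0.42, edgeR adjusted p = 1.84e-05 and 7.42e-05). CPA4, near MEST, was called higher in the hnRNPM KD at 0.599 ± 0.93 CPM, against 0.0305 ± 0.053 CPM in WT (edgeR adjusted p = 0.0427), a call kept in 5 of 14 alternatives and lost without hnRNPM KD 3 or any 1 WT library. A list of 52 other imprinted genes had 37 tested: 13 rose and 5 fell in the untreated S100A16 KD, 14 rose and 9 fell in the hnRNPM KD, while 12 rose and 8 fell in the MagoHB KD. Their medians were 0.19, 0.05 and 0.09, and the shares called were 48.6%, 62.2% and 54.1%, beside 52.3%, 49.1% and 45.5% of all genes. With scaling by total counts alone the S100A16 split was 21 and 3, since that scaling moves the median of all genes by 0.24. For the S100A16 KD against WT, both under H2O2, the 4 lists had 12 and 4 (other imprinted genes), 9 and 5 (neighbours), 2 and 13 (imprint factors) and 10 and 9 (IGF and insulin signalling) genes higher and lower. H2O2 gave 0 calls in each list by edgeR.

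Besides MEG8, the imprinted genes with the smallest adjusted p by edgeR were SNHG14, BLCAP and PLAGL1 among those that rose. SNHG14, the host RNA of the Prader-Willi region, averaged 45.4 ± 1.2 CPM in the untreated S100A16 KD, 44.5 ± 5.4 in the hnRNPM KD, 35.4 ± 1.9 in the MagoHB KD and 30.3 ± 0.32 in WT (log2 0.58, 0.56 and 0.23, edgeR adjusted p = 3.20e-07, 6.94e-07 and 0.0101). BLCAP, of the NNAT locus, averaged 55.7 ± 2.0 CPM in the untreated S100A16 KD, 33.8 ± 7.6 in the hnRNPM KD, 69.4 ± 17 in the MagoHB KD and 23.4 ± 1.4 in WT (1.25, 0.53 and 1.57, edgeR adjusted p = 4.25e-06, 0.00824 and 5.44e-07). PLAGL1, a zinc finger regulator that in mouse acts on a network of imprinted genes, averaged 7.09 ± 0.33 CPM in the untreated S100A16 KD, 12.3 ± 1.3 in the hnRNPM KD, 7.79 ± 1.5 in the MagoHB KD and 3.77 ± 0.054 in WT (0.91, 1.70 and 1.05, edgeR adjusted p = 8.42e-06, 8.76e-10 and 1.78e-06). GNAS-AS1 rose to 2.96 ± 1.6 CPM in the MagoHB KD, against 0.403 ± 0.27 CPM in WT (2.88, edgeR adjusted p = 2.50e-05). Among those that fell, DDC, which makes dopamine and lies beside GRB10, had 0.677 ± 0.24 CPM in the hnRNPM KD and 6.90 ± 0.70 in WT (log2 -3.31, edgeR adjusted p = 1.60e-08). UBE3A, the Angelman ubiquitin ligase, had 46.4 ± 7.1 CPM in the MagoHB KD and 73.6 ± 1.9 in WT (-0.67, edgeR adjusted p = 2.17e-07), and rose in the untreated S100A16 and hnRNPM KDs (0.19 and 0.22, edgeR adjusted p = 0.0347 and 0.0166). GNAS, the G protein alpha subunit, had 222 ± 4.9 CPM in the untreated S100A16 KD and 278 ± 4.5 in WT (log2 -0.33), a call that scaling by total counts alone did not give (-0.09).

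**Figure D5:**
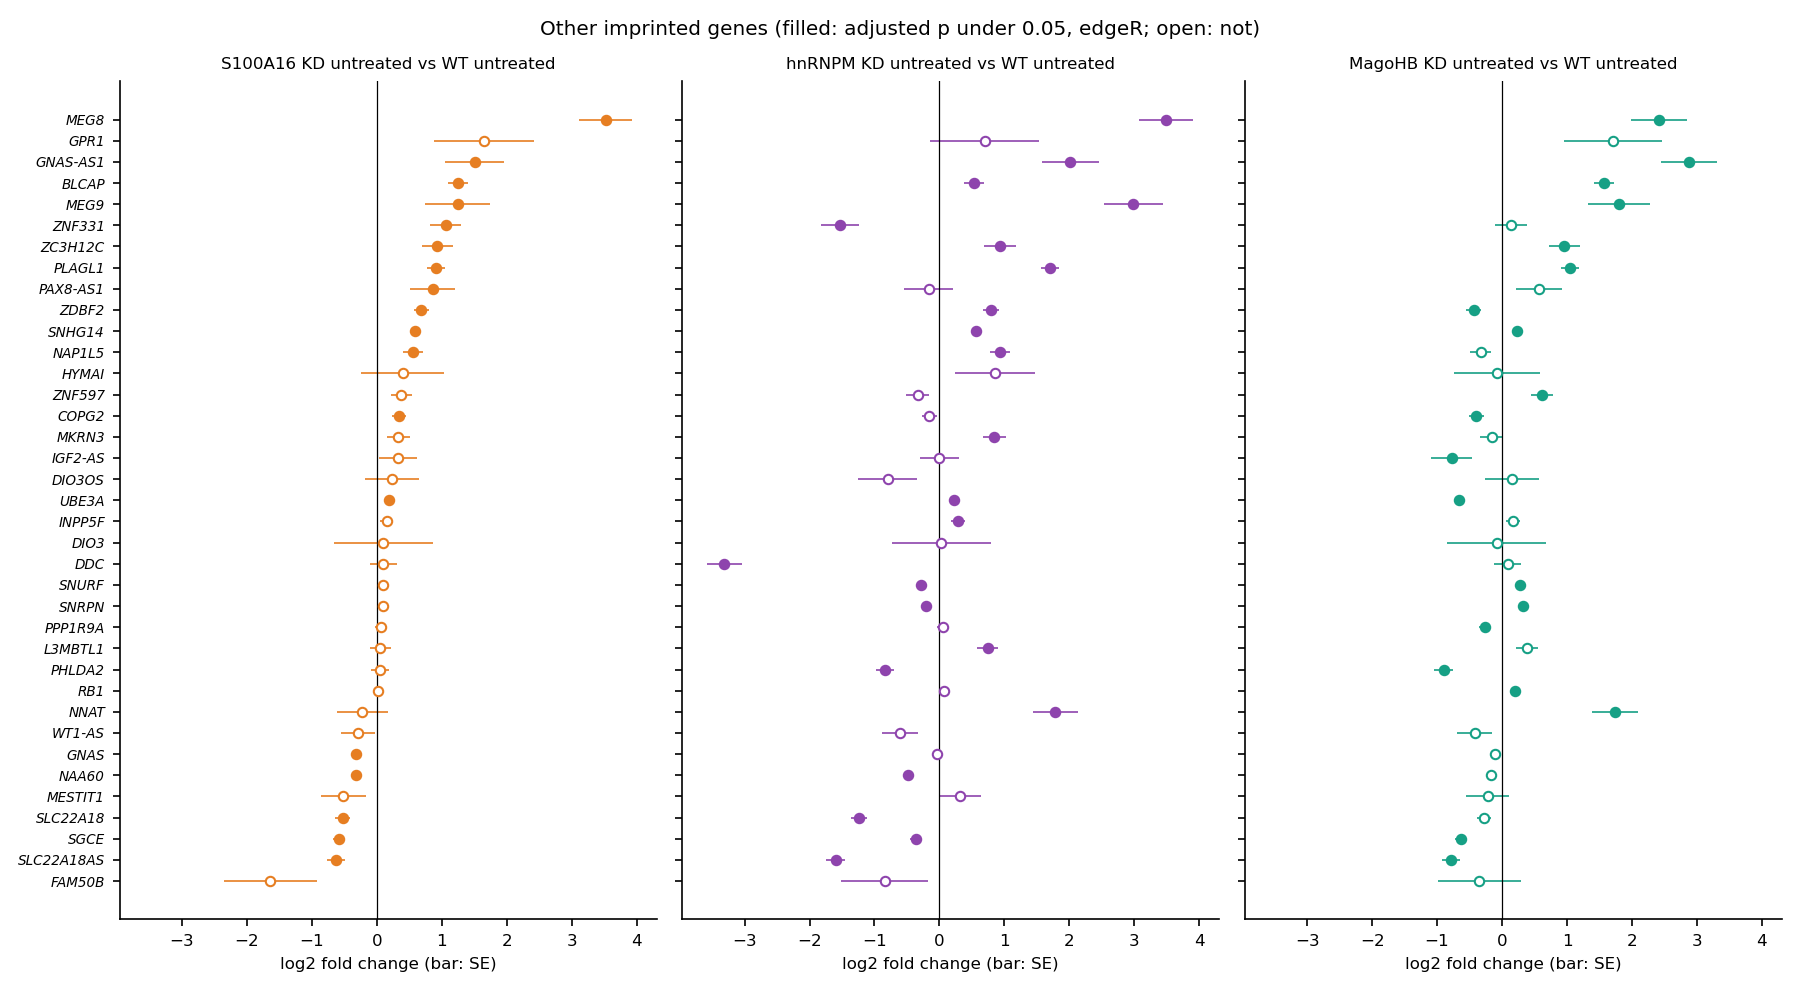
Log2 fold change with its SE for the 37 tested genes of the list of other imprinted genes in the 3 untreated KDs against WT, ordered by the S100A16 KD, with filled points for adjusted p under 0.05 by edgeR. In the S100A16 KD 13 filled points lie above 0 and 5 below, with MEG8 at the top at 3.52.

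Factors that set or read imprints were measured next. Of 30 genes, 25 were tested, and 13 fell and 2 rose in the untreated S100A16 KD, 14 fell and 2 rose in the hnRNPM KD, while 9 fell and 3 rose in the MagoHB KD. The shares called were 60.0%, 64.0% and 48.0%, beside 52.3%, 49.1% and 45.5% of all genes. The list medians were -0.34, -0.24 and -0.11, against 0.06, 0.02 and 0.04 over all genes. The counts without the 3 libraries that stood apart were 15 and 3, 14 and 3, and 9 and 6. That fit called 12541, 11527 and 10120 of 22638 genes. With total counts alone the list counts were 11 and 8, 11 and 4, and 7 and 9, so in the MagoHB KD the balance turned. That scaling called 12438, 11187 and 11009 of 22382 genes. Many of these proteins also serve replication and the cell cycle. TRIM28, the corepressor that protects imprints, averaged 88.0 ± 1.7 CPM in the untreated S100A16 KD and 149 ± 6.9 in WT (log2 -0.76, SE 0.09, edgeR adjusted p = 4.35e-07), and fell in the hnRNPM and MagoHB KDs too (-0.34 and -0.38, edgeR adjusted p = 0.00349 and 0.00136). TET3, which oxidises methylcytosine, had 20.4 ± 1.4 CPM in the untreated S100A16 KD, 18.96 ± 0.67 in the MagoHB KD and 35.5 ± 1.0 in WT (-0.80 and -0.90, edgeR adjusted p = 3.33e-08 and 7.54e-09). EED, a subunit of Polycomb complex PRC2, had 55.5 ± 2.8 CPM in the untreated S100A16 KD, 60.3 ± 2.9 in the hnRNPM KD and 78.2 ± 1.5 in WT (-0.49 and -0.38, edgeR adjusted p = 4.71e-07 and 1.89e-05). RAD21, a cohesin subunit, had 287 ± 64 CPM in the MagoHB KD and 518 ± 6.5 in WT (-0.85, edgeR adjusted p = 1.40e-05), and SMCHD1 44.0 ± 7.6 and 73.5 ± 2.0 (-0.74, edgeR adjusted p = 2.44e-07). The de novo methyltransferase DNMT3A rose to 33.2 ± 1.2 CPM in the untreated S100A16 KD, against 22.4 ± 1.1 in WT (0.57, edgeR adjusted p = 2.55e-06), and rose in the MagoHB KD (0.32, edgeR adjusted p = 0.00202), as did DNMT3B (0.44, edgeR adjusted p = 0.00434) and ZNF445, a zinc finger protein that protects imprints (0.35, edgeR adjusted p = 1.97e-04). ZNF445 was also called in the untreated S100A16 KD (0.17, edgeR adjusted p = 0.0412), a call kept in 5 of 15 alternatives and lost when any 1 library of either group was left out. In the hnRNPM KD the chaperone of histone H3.3 DAXX and the heterochromatin protein CBX5 rose (0.70 and 0.32, edgeR adjusted p = 1.32e-07 and 0.0119), and TET1 and CBX3 fell (-0.82 and -0.42, edgeR adjusted p = 6.66e-06 and 1.94e-04). CBX5 was not called without hnRNPM KD 1 or without hnRNPM KD 2. CTCF, which binds between H19 and IGF2 and was named after its values were seen, had 96.9 ± 1.7 CPM in the untreated S100A16 KD, 108 ± 1.2 in the hnRNPM KD, 111 ± 13 in the MagoHB KD and 122 ± 0.37 in WT (-0.34, -0.18 and -0.14). As CTCF was picked on these values, no p is given for it.

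IGF2, IGF2R and GRB10 belong to IGF and insulin signalling, where 26 of 27 other genes were tested. In the untreated S100A16 KD 8 rose and 7 fell, in the hnRNPM KD 13 rose and 5 fell, while in the MagoHB KD 8 rose and 9 fell, with medians of 0.03, 0.17 and -0.03. The shares called were 57.7%, 69.2% and 65.4%, beside 52.3%, 49.1% and 45.5% of all genes. Without the 3 libraries that stood apart, the counts that rose and fell were 8 and 10, 11 and 7, and 9 and 11. In the S100A16 KD the balance thus turned. That fit called 12541, 11527 and 10120 of 22638 genes. With total counts alone, 14 rose and 6 fell in the S100A16 KD, 14 and 4 in the hnRNPM KD, and 10 and 3 in the MagoHB KD, where the balance turned. That scaling called 12438, 11187 and 11009 of 22382 genes. The IGF1 receptor IGF1R, through which IGF2 also signals, rose to 146 ± 4.4 CPM in the untreated S100A16 KD and 138 ± 11 in the MagoHB KD, against 99.1 ± 4.8 in WT (log2 0.56 and 0.48, edgeR adjusted p = 4.35e-07 and 5.77e-06), and to 112 ± 11 in the hnRNPM KD (0.18, edgeR adjusted p = 0.0290). The growth kinase MTOR rose in all 3 KDs, by 0.66, 0.41 and 0.56 on the log2 scale (edgeR adjusted p = 1.48e-08, 1.22e-05 and 2.43e-07). The adaptor GRB2 fell to 68.5 ± 1.4 CPM in the untreated S100A16 KD, against 107 ± 3.2 in WT (-0.64, edgeR adjusted p = 2.18e-09). In the hnRNPM KD the regulatory subunit PIK3R1 rose to 53.2 ± 5.4 CPM, against 24.8 ± 1.9 in WT (1.10, edgeR adjusted p = 8.61e-10), and it rose in the untreated S100A16 KD too (0.59, edgeR adjusted p = 6.90e-06). AKT1 also rose in the hnRNPM KD (0.40, edgeR adjusted p = 1.73e-06), while TSC2, an inhibitor of MTOR signalling, and the adaptor IRS1 fell there (-0.63 and -0.38, edgeR adjusted p = 1.99e-07 and 0.00101). Without hnRNPM KD 3, 8 genes of the list rose there in place of 13. That fit called 9967 of 22966 genes.

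The RNA-binding proteins IGF2BP1, IGF2BP2 and IGF2BP3, which bind IGF2 mRNA, differed by KD. IGF2BP1 rose in all 3, to 175 ± 3.0 CPM in the untreated S100A16 KD, 222 ± 14 with the hnRNPM KD and 191 ± 4.8 with the MagoHB KD, against 149 ± 2.7 in WT (0.24, 0.58 and 0.36, edgeR adjusted p = 8.27e-04, 1.08e-08 and 1.09e-05). IGF2BP2 fell to 62.7 ± 1.5 CPM in the untreated S100A16 KD and 62.4 ± 6.9 in the MagoHB KD but rose to 123 ± 2.5 in the hnRNPM KD, against 91.7 ± 0.79 in WT (-0.55, -0.56 and 0.42, edgeR adjusted p = 1.96e-07, 2.44e-07 and 6.39e-06). IGF2BP3 fell in the hnRNPM and MagoHB KDs (-0.31 and -0.40, edgeR adjusted p = 4.88e-04 and 3.50e-05). GNPTAB, which makes the mannose 6-phosphate tag that IGF2R binds, fell to 19.2 ± 1.5 CPM in the MagoHB KD, against 36.3 ± 0.35 in WT (-0.91, edgeR adjusted p = 1.60e-10), and rose in the untreated S100A16 KD (0.33, edgeR adjusted p = 1.28e-04). In the untreated S100A16 KD the other mannose 6-phosphate receptor, M6PR, fell to 47.2 ± 1.9 CPM, against 69.9 ± 2.2 (-0.57, edgeR adjusted p = 1.27e-07), and it rose in the hnRNPM and MagoHB KDs (0.16 and 0.23, edgeR adjusted p = 0.0325 and 0.00388).

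Genes whose log2 CPM was among the most like that of H19 over the 18 libraries, among those averaging 5 CPM or more, were CCNA2 (Pearson r = 0.991), SF3A3, RRM1 and FKBP5 (r = 0.988 each). CCNA2, the cyclin of S phase, averaged 22.4 CPM in the untreated S100A16 KD, 27.4 in the hnRNPM KD, 44.0 in the MagoHB KD and 67.7 in untreated WT. For MEG3 they were GOLGA8A (r = 0.996), GOLGA8B (0.994), NEFL (0.985), MATN2 (0.983) and BRPF3 (0.983). GOLGA8A and GOLGA8B are near-identical copies, so the division of reads between them is uncertain. The points are libraries of 6 groups that share the same KD lines, and the values are a description.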

How the data were processed

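Poly(A) mRNA of A549 cells was sequenced in 18 libraries, grouped by the labels alone. The authors deposited whole-number counts per feature and RPKM for 44016 features with exon coordinates and exon length, another deposited column. The submitters' processing notes list HISAT2 2.2.1, StringTie 2.1.4, DESeq2 1.32.0, FastQC 0.11.9 and SAMtools 1.15.1, and the build GRCh38, and no counting program is named. The deposited RPKM equalled counts over exon length and library total for 100% of 531539 values above 0 (relative tolerance 0.001). Of counts from 1 to 19, 18.6% to 22.0% were odd, so read mates may have been counted singly, and halved counts were an alternative. Per-sample columns not used numbered 0.

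The test on counts was the robust quasi-likelihood test of edgeR 4.0.16 in R 4.3.3, with TMM scaling (factors 0.908 to 1.10), the filterByExpr filter and 1 mean per group over all 18 libraries. This kept 22382 genes, with p adjusted by Benjamini-Hochberg and called under 0.05. SE and adjusted p come from this fit; SD is of 3 libraries. Alternatives were DESeq2 1.42.0, limma 3.58.1 (pseudocount 0.5), other scalings and filters, and libraries left out. The 10 genes, the lists and the tests were chosen with earlier results of these data known. Named were the 10 genes, the 3 targeted genes, the genes with the smallest adjusted p in each list and direction (up to 3 per KD), and the 5 genes most like H19 and MEG3. Other genes named are said to be so or give the same gene in another KD. Some genes that the rule names are not reported here. Depth limits low genes: 3 counts, the limit that a count of 0 allows, correspond to 0.0532 to 0.0875 CPM, counting error only. If read mates were counted singly, this limit would be higher. Sequences are from RefSeq GRCh38.p14, matched by symbol.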

Additional observations from a re-analysis of the deposited data

How the results depend on the processing

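Over 15 alternatives per comparison (21 for the interaction), the number of the 9 genes called stayed within 1.5 times in 154 of 156 cases, though which genes were called changed in some: total counts alone lost IGF2 and MEST and gained KCNQ1OT1 for the untreated S100A16 KD, lost MEST and gained KCNQ1OT1 under H2O2, and gained IGF2R and MEST for the MagoHB KD. With the filter cut to 1 count, IGF2 was lost for the untreated S100A16 KD and GRB10 for the MagoHB KD. Both were also lost with only the libraries of the groups compared. H19 was gained for S100A16 against hnRNPM by DESeq2 and with only the libraries compared. The latter also lost PEG10 for hnRNPM against MagoHB. Leaving out the 3 libraries that stood apart gave 5 called genes for S100A16 against hnRNPM, against 3, where 11672 of 22638 genes were called. Fitting the 6 libraries alone gave 1 (MEG3) for H2O2 in the S100A16 KD, against 0, where 801 of 20586 genes were called. The cause of either change was not tested. Leaving out 1 library gave 5 to 7 for the untreated S100A16 KD, 5 to 6 under H2O2, 5 for the hnRNPM KD, 4 to 5 for the MagoHB KD, 2 to 3, 7 and 5 to 7 between KDs, and 0 for H2O2. Of 22880 to 23063 genes tested in those fits, 10523 to 10658, 10524 to 10684, 9818 to 10570 and 8912 to 10387 were called against WT. Between KDs the calls over all genes were 9747 to 10833, 8785 to 10613 and 8793 to 10318. For H2O2 they were 40 to 44 in WT, 3 to 7 in the S100A16 KD and 13 to 17 for the interaction. With scaling by total counts alone, which assumes equal totals, 74.0% of called genes were higher in the untreated S100A16 KD (9207 higher, 3231 lower) against 52.7% with TMM (6168 and 5545). The other KDs under that scaling had 8558 and 3667 (S100A16 under H2O2; TMM 6241 and 5518), 7058 and 4129 (hnRNPM; 5676 and 5323) and 8220 and 2789 (MagoHB; 5208 and 4985), with median shifts of 0.18, 0.11 and 0.21. Between KDs they were 6814 and 4013 (S100A16 against hnRNPM; 5504 and 5427) and 3986 and 6196 (hnRNPM against MagoHB; 4998 and 4965). IGF2 in the S100A16 KD under H2O2 was then at 0.12 in place of -0.07, PEG3 in the untreated S100A16 KD at 0.17 in place of -0.07 and PEG10 in the MagoHB KD at 0.02 in place of -0.18. H19 under H2O2 in WT, at -0.00, changed sign around 0 with several settings.

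Same-numbered libraries deviated together with correlations from -0.13 to 0.19 over 27 pairs, so the numbers do not pair them. A fit with the replicate block called the same 7, 6, 5, 5, 3, 7, 6, 0, 0 and 0 genes. Over all 22382 genes that fit called 11553, 11653, 10864, 9986, 10839, 9865, 9794, 48, 4 and 20. Total counts are 36612997 to 51406431 per library, and CDKN1C and PEG3 stay under any useful precision at that depth.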
